A study of Capra hircus with 20 samples.

Results

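The genes of the respiratory chain and the ATP synthase were examined in the hypothalamus of goats at 4 ages after birth. A gene was a member if it was 1 of the 13 protein genes of the mitochondrial genome. A nuclear gene was a member if its symbol began with NDUFA, NDUFB, NDUFC, NDUFS, NDUFV, SDH, UQCR, COX4, COX5, COX6, COX7, COX8 or ATP5. By this rule 85 of the 21071 genes in the expression data were members, 13 mitochondrial and 72 nuclear. The nuclear members comprised 37 subunits of complex I, 8 assembly factors of complex I, 4 subunits of complex II, 4 assembly factors of complex II, NDUFA4 and NDUFA4L2 of complex IV, and 17 genes named for the ATP synthase (complex V). Symbols beginning with UQCR or with COX4 to COX8 matched no gene, so the nuclear subunits of complex III and nearly all of those of complex IV were not analysed here.

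Female Jining grey goats kept under the same rearing conditions were sampled at 1 day (D1), 60 days (M2), 120 days (M4) and 180 days (M6) of age. There were 5 goats per stage, no treatment is named in the labels, and every goat gave 1 strand-specific RNA library depleted of rRNA. Expression was given as FPKM, the number of fragments of a gene scaled to its length and to all mapped fragments. The comparisons asked how the transcripts of both genomes differed between the newborn and the later stages of sexual maturation, and whether they went together across the 20 libraries.

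The respiratory chain passes electrons from NADH and succinate through complexes I to IV to oxygen and pumps protons across the inner mitochondrial membrane, and the ATP synthase uses the proton gradient to make ATP. Complexes I, III, IV and V are assembled from subunits of both genomes, whereas complex II is encoded in the nucleus alone. The mitochondrial genes are transcribed inside the organelle as long RNAs from both strands that are cut into shorter RNAs afterwards. The nuclear genes are transcribed one by one. Neurons are known for their high demand for ATP from this pathway.

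Some libraries stood apart before any comparison. Library M2-1 had the lowest summed FPKM of the 12 neuron markers except for M6-3, at 475, and M6-3 had 146 against 974 to 1909 at D1. In M2-3 and M6-3 the gene KLHDC1 alone reached 84503 and 37092 FPKM, which was 23.9% and 9.83% of the summed FPKM. All 12 neuron markers had a mean of at least 1 FPKM over the libraries. Genes that mark the hypothalamus within the brain were uneven, with SIM1 above 1 FPKM in 7 of the 20 libraries, NKX2-1 in 7 and oxytocin (OXT) in 8. Vasopressin (AVP) was above 1 FPKM in 13 libraries, PMCH in 9, TRH in 8, HCRT in 6 and OTP in 5. The mapping rates of the M2 libraries were all below those of the D1 libraries. How many reads lie behind a value is unknown, so the spread between the 5 goats of a stage carries the error.

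All 13 mitochondrial members were detected in every library. Their mean FPKM over the 20 libraries ran from 15.98 for ND6 to 6248 for COX1, the catalytic subunit of complex IV. COX1 held 46.1% of the summed mitochondrial FPKM on average and ND3, a small complex I subunit, held 18.3%. CYTB, the mitochondrial subunit of complex III, followed at 1105 FPKM, COX2 at 1085, ND2 at 723 and ND4L at 678. ND1 had 246 FPKM and ND5 had 208. ND6 was the lowest member and is the only protein gene encoded on the light strand. In the ARS1.2 annotation ATP8 and ATP6 share 40 bases, ATP6 and COX3 share 1, ND4L and ND4 share 7, and ND5 and ND6 share 17 on opposite strands. How reads in the shared bases were divided, and whether the strand was used for it, is not given in the sources used here. The values of ATP8, ATP6, COX3, ND4L, ND4, ND5 and ND6 could be affected by this, to an extent that is not known. COX3 and ND4 share few bases and were found at separate levels in different libraries, as given below, and why was not tested. Sums were also made over the 8 members other than ATP8, ATP6, COX3, ND4L and ND4. This choice was made after the data were seen.

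The 72 nuclear members were lower per kilobase than most mitochondrial ones. Their mean FPKM had a median of 44.4 over the genes and reached 361 for ATP5A1, the alpha subunit of the ATP synthase. The next were ATP5E (epsilon subunit) at 231 FPKM, ATP5J2 (f subunit) at 219.5, NDUFB8, a membrane-arm subunit of complex I, at 207 and ATP5B (catalytic beta subunit) at 202. Median levels per gene were 105 FPKM for the ATP synthase genes, 54.3 for the complex II subunits and 46.2 for the nuclear complex I subunits. Assembly factors were lower, with medians of 9.67 FPKM for complex I and 7.49 for complex II. The only member under 1 FPKM on average was NDUFA4L2, at 0.528, and it was also the only one listed at 0 in a library, M6-3.

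Summed over the members, the mitochondrial transcripts were 11516, 17932, 11333, 10179 and 10227 FPKM in the 5 D1 libraries and 26482, 15961, 8147, 14976 and 14992 in the M2 libraries, in the order of their numbers. They were 14055, 14366, 12297, 11107 and 13666 FPKM at M4 and 13043, 16710.4, 8405, 12947 and 13809 at M6. M2-1 had the highest sum of all, M2-3 and M6-3 the lowest, and the stages overlapped. The nuclear sums were 4721, 4916, 6703, 7262 and 5477 FPKM at D1 and 2406, 4970.0, 3223, 5457 and 4145 at M2. At M4 they were 5089, 4814, 2590.5, 3807 and 5617 FPKM and at M6 4361, 4774, 4202, 4144 and 3876. Of the 15 later libraries, 9 were below the lowest D1 library (3 at M2, 2 at M4 and 4 at M6), and the highest nuclear sums were those of D1-3 and D1-4. M2-1, which had the most mitochondrial transcripts, had the fewest nuclear ones.

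**Figure D1:**
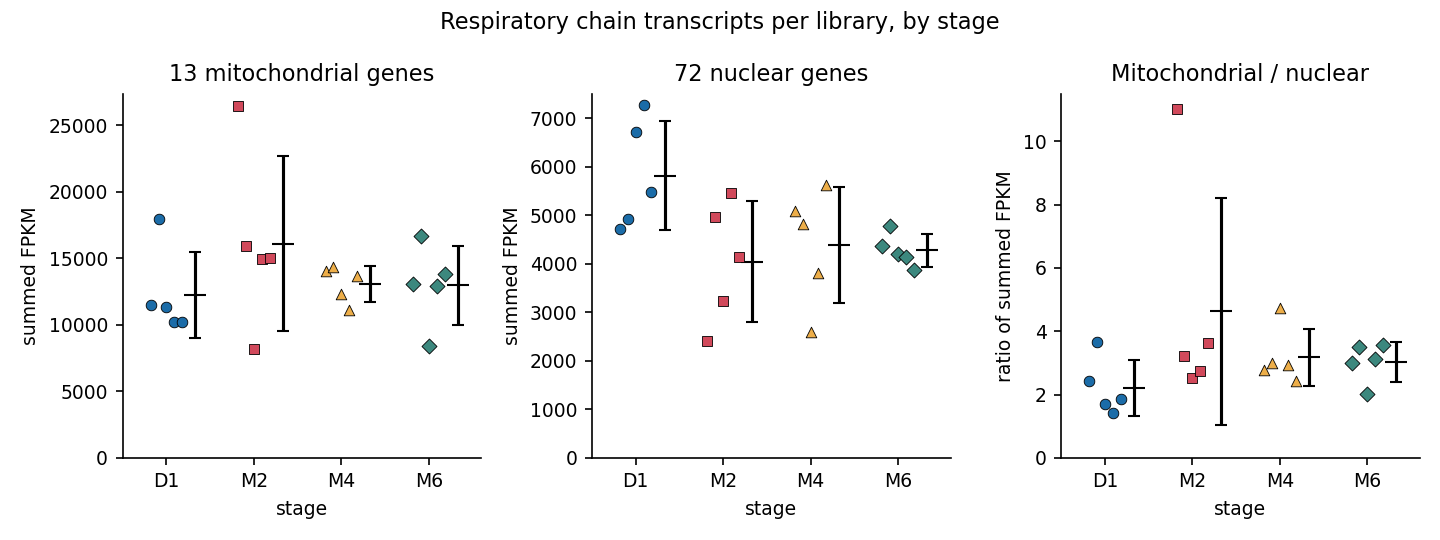
Summed FPKM of the 13 mitochondrial and the 72 nuclear members and their ratio in every library (points, 5 per stage), with the mean and SD of each stage (black bars). The nuclear sum was 5816 ± 1118 at D1 and between 4040.1 and 4383 on average at the later stages, and library M2-1 stands apart with a ratio of 11.01.

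The nuclear sum averaged 5816 ± 1118 FPKM (SD, n = 5) in D1, 4040.1 ± 1247 in M2, 4383 ± 1199 in M4 and 4271 ± 331 in M6. The mean log2 difference of the later stages from D1 was -0.48, against a pooled SD between goats of a stage of 0.36. The mitochondrial sum averaged 12238 ± 3242 FPKM in D1, 16112 ± 6587 in M2, 13098 ± 1365 in M4 and 12983 ± 2981 in M6. Its log2 difference of 0.18 was smaller than its pooled SD of 0.40. The ratio of the mitochondrial to the nuclear sum was 2.44, 3.65, 1.69, 1.40 and 1.87 at D1. It was 11.01, 3.21, 2.53, 2.74 and 3.62 at M2, 2.76, 2.98, 4.75, 2.92 and 2.43 at M4 and 2.99, 3.50, 2.0004, 3.12 and 3.56 at M6. D1-4 had the lowest ratio and M2-1 the highest, and D1-2 lay above all later libraries except M2-1 and M4-3.

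The mean log2 difference of the ratio between the later stages and D1 was 0.66, with a pooled SD of 0.57 and with overlapping groups. In M2 vs. D1 it was 0.90, and 0.52 without M2-1. Over the 8 mitochondrial members named above and the 70 nuclear members other than ATP5I and NDUFB2, it was 0.80. The members of both genomes were left out after their values were seen. They include COX3 and ND4, which were lower than at D1, and NDUFB2, which was higher. Leaving these out raises the difference, so 0.80 is not an independent check of 0.66. All sums used here are dominated by the most abundant genes. Where the log2 values of the members were averaged instead, the difference of the ratio was -0.18 and that of the mitochondrial measure -0.58, because COX3 and ND4 then count as much as COX1. The direction of the mitochondrial side and of the ratio therefore depended on how the members were weighed. Mitochondrial members made up 2.23% to 8.89% of the summed FPKM of a library and nuclear members 0.808% to 2.06%.

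Most nuclear members varied together across the libraries, as did most of the 8 mitochondrial members kept above, and the members of different genomes mostly did not. Over the 20 libraries, Pearson's r of log2(FPKM + 0.1) was 0.57 in the median of the 2556 nuclear pairs and 0.72 in that of the 28 pairs among the 8 mitochondrial members. Between the 8 mitochondrial and the 72 nuclear members the median over 576 pairs was -0.25. After the stage means were subtracted the medians were 0.52, 0.75 and -0.20. Over the 78 pairs among all 13 mitochondrial members the median was lower, at 0.46 (0.59 after the stage means were subtracted), with a range from -0.47 to 0.93. Of the members left out, COX3 and ND4 had r = -0.17 and -0.29 with the sum of the 8. For ND4L, ATP6 and ATP8 this r was 0.81, 0.58 and 0.31. The 8 were chosen after the data were seen, so their median of 0.72 is that of a selected set. All values of a library share its depth, its RNA and its FPKM denominator, so these correlations are descriptions and carry no test. The sum of the 8 mitochondrial members and the nuclear sum had r = -0.28 and Spearman's rho = -0.01 over the 20 libraries. Without M2-1 the r was 0.07, so the negative value rested on that library.

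**Figure D2:**
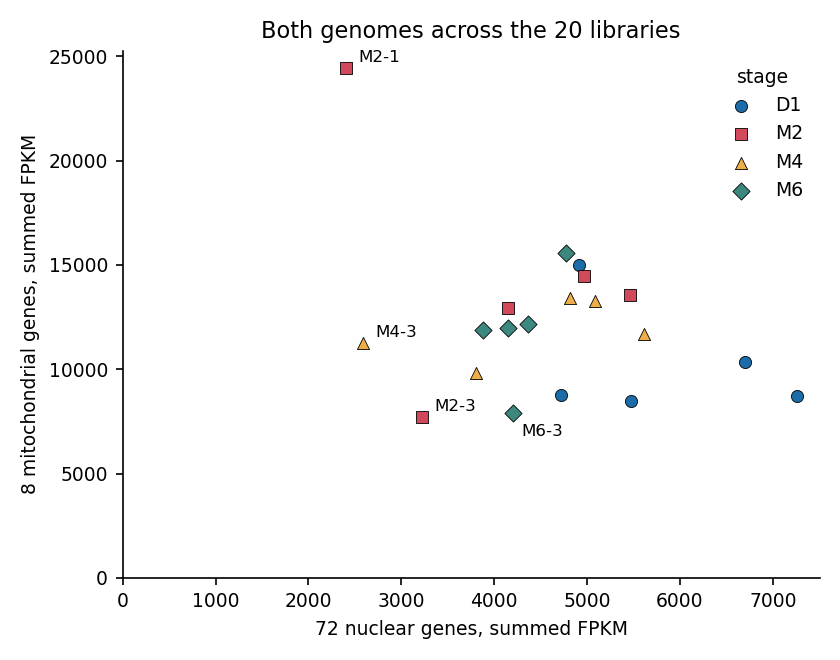
Summed FPKM of the 8 mitochondrial members (vertical axis) against that of the 72 nuclear members (horizontal axis), 1 point per library, with colour and shape for the stage. M2-1 lies alone at the upper left, M4-3, M2-3 and M6-3 are labelled, and the other points show no common slope.

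NDUFB6, a membrane-arm subunit of complex I, followed the other nuclear members most closely, with r = 0.97 to their sum. NDUFA12 (0.96) and ATP5C1, the gamma subunit of the ATP synthase (0.96), came next, and 36 of the 72 had an r above 0.8. Only 4 had an r below 0, namely NDUFB2 (-0.35), ATP5I (-0.17), NDUFA4L2 (-0.16) and ATP5SL (-0.03). The gene lists most like the nuclear sum were the 77 mitochondrial ribosomal proteins (r = 0.98 between the sums, n = 20) and the 18 genes of the tricarboxylic acid cycle (0.90), and these are nuclear genes too. The r was 0.85 for 19 genes of glycolysis and lactate and 0.39 for the cytosolic ribosomal proteins. It was 0.51 for the neuron markers, with rho = 0.70. Among the mitochondrial members, ND6 had an r of 0.34 with the sum of the 8, and ND1 had 0.90. By library, 34 of the 72 nuclear members were lowest in M2-1, 19 in M4-3 and 10 in M2-3, and 35 were highest in D1-4. Of the 13 mitochondrial members, 7 were highest in M2-1 and 6 were lowest in M2-3.

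To compare the stages, log2(FPKM + 0.1) was fitted with limma for the 16771 genes that had 0.1 FPKM or more in 5 or more libraries, and all 85 members passed this filter. The 7 comparisons were the 6 between stages and the mean of the 3 later stages against D1, and limma called no member at a Benjamini-Hochberg adjusted p of 0.05 in any of them. Among all genes tested limma called 10 for M4 against D1 (0.0596% of the genes), 1 for M6 against D1 (0.00596%), 13 for the later stages against D1 (0.0775%) and 0 in the other comparisons, all of them lower than at D1. The nuclear members nevertheless lay on one side. An unadjusted p under 0.05 with a lower level at M2 than at D1 was found for 30 of the 72, against 9.35% of all genes, and with a higher level for 0, against 6.25% of all genes. Lower levels with such a p numbered 16 at M4 (6.21% of all genes), 11 at M6 (4.08%) and 37 in the later stages vs. D1 (7.04%). Only NDUFB2 was higher with such a p in the last 3, as were 2.5%, 3.33% and 4.71% of all genes. These comparisons use the same 5 D1 libraries and are not independent, and the members vary together within a library.

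By direction alone, 69 of the 72 nuclear members were lower in M2 than in D1, 66 in M4, 66 in M6 and 67 in the mean of the later stages. Of all genes tested, 55.2%, 56.3%, 55.1% and 56.9% were lower. The median log2 fold change of the nuclear members against D1 was -0.54 at M2, -0.43 at M4, -0.42 at M6 and -0.44 in the mean of the later stages. The median of all genes was between -0.07 and -0.05. COX3 and ND4 were lower with an unadjusted p under 0.05 in all 4, and ND6 in all but M4 vs. D1. COX3 and ND4 were each at separate levels in different libraries, as given below, so their values do not give a graded difference. Mitochondrial members had medians of 0.14, 0.17, 0.09 and 0.16, with 9, 9, 8 and 8 of the 13 higher than at D1. The sign of the mitochondrial medians rested on single libraries: without D1-4 they were -0.04 at M2, -0.13 at M6 and -0.05 in the later stages, without M2-1 it was -0.11 in M2 vs. D1, and without D1-5 it was 0.00 in M6 vs. D1. No nuclear median turned its sign, and that of M4 vs. D1 was -0.25 without M4-3. Without M2-1, M2-3 and M6-3, the libraries that stood apart, the nuclear median in M2 vs. D1 was -0.27, with 62 of the 72 lower, and that in the later stages vs. D1 was -0.34. This set of libraries was chosen after the data were seen. The smallest adjusted p of a nuclear member was 0.143 (NDUFB7 in M2 vs. D1) and that of a mitochondrial member 0.258 (ND4 in the same comparison).

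The size of the nuclear difference depended on whether the mapping rate was in the model. With the mapping rate of each library as a covariate in limma, the median log2 fold change of the nuclear members was -0.13 in M2 vs. D1 and -0.12 in the later stages vs. D1, with 51 of the 72 lower in the latter, while the median of all genes in the latter was 0.03 in place of -0.07. Quantile normalization gave -0.26 and median-ratio scaling -0.39 in the later stages vs. D1. The neuron markers were mostly lower too, with 10 of the 12 lower in the later stages vs. D1, a median log2 fold change of -0.53, and 0 called. Their sum was 974 to 1909 FPKM in D1, 475 to 1660.2 in M2, 993 to 3139 in M4 and 146 to 1404 in M6, and their part in the result was not tested. In bulk tissue, fewer cells of a type and less RNA per cell cannot be told apart.

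**Figure D3:**
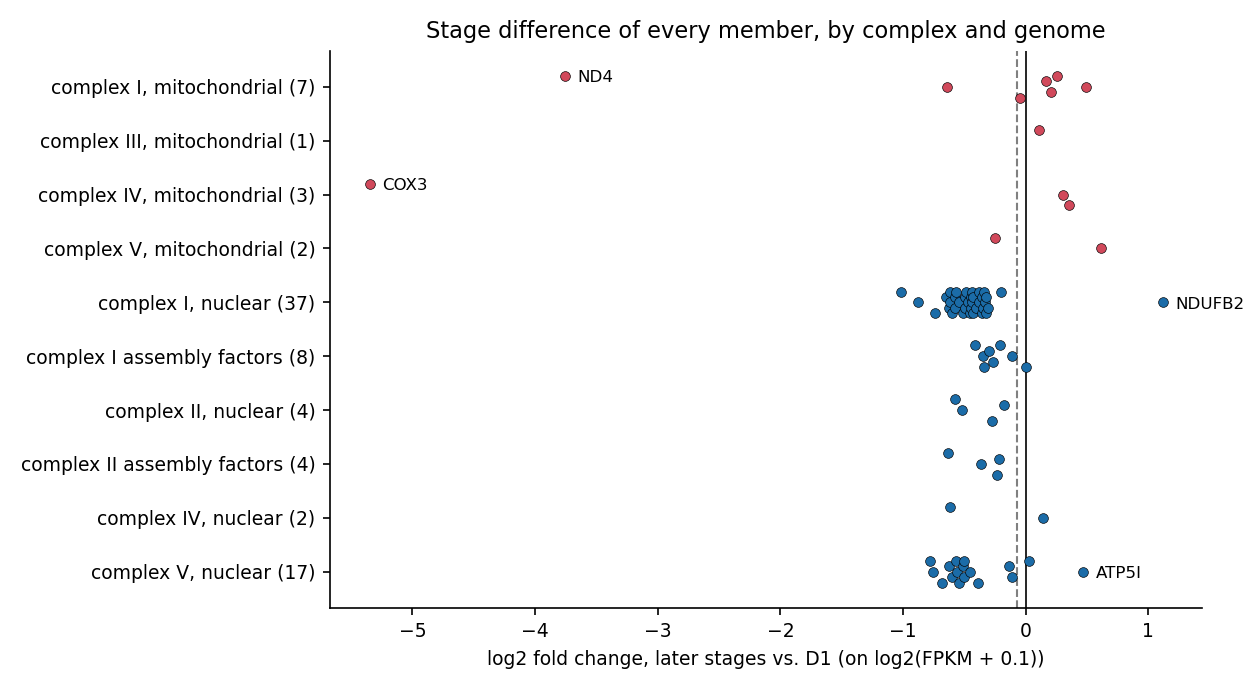
Log2 fold change of each of the 85 members in the later stages vs. D1 (horizontal axis), grouped by complex and genome with the number of genes in parentheses; red points are mitochondrial and blue points nuclear, the dashed line is the median of all genes tested (-0.07), and vertical offsets only separate the points. Of the nuclear members 67 of 72 lie left of 0, while COX3 and ND4 lie far to the left and NDUFB2 to the right.

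Nuclear subunits of complex I, the NADH dehydrogenase, were lower in the later stages for 36 of the 37 genes, with a median log2 fold change of -0.45. An unadjusted p under 0.05 with a lower level was found for 20 of them, and none was called. NDUFV1, the flavoprotein that takes electrons from NADH, had 35.6, 33.2, 44.9, 46.2 and 32.03 FPKM at D1 and 13.03, 28.99, 30.7, 30.2 and 32.96 at M2. It had 22.6, 36.4, 19.98, 26.6 and 35.9 at M4 and 28.3, 25.4, 22.98, 27.03 and 33.5 at M6. M2-1 was far below the other 4 M2 libraries, and M2-5, M4-2, M4-5 and M6-5 were the only later libraries within the D1 range. NDUFV1 differed in the later stages vs. D1 by a log2 fold change of -0.50 (SE 0.19, adjusted p = 0.323), where SE is the standard error of the fit. NDUFS1, the large iron-sulphur subunit of the same module, had 74.05, 74.7, 89.9, 103 and 71.7 FPKM in D1, 22.6, 65.2, 32.5, 65.02 and 60.3 in M2, 85.99, 64.2, 44.6, 50.4 and 72.9 in M4 and 58.5, 62.6, 39.1, 58.6 and 39.5 in M6. All M2 and all M6 libraries were below the lowest D1 library, whereas M4-1 and M4-5 were not. For NDUFS1 the log2 fold change was -0.65 (SE 0.22, adjusted p = 0.268) in the later stages and -0.86 (SE 0.27, adjusted p = 0.179) in M2 vs. D1. 

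NDUFB7, an accessory subunit at the intermembrane face of the membrane arm, had the lowest fold change of the nuclear members in M2 vs. D1. It lies on chromosome 7 of the ARS1.2 genome from 96621432 to 96625883 and had 10.3, 11.6, 15.1, 14.497 and 12.2 FPKM at D1 and 1.90, 3.58, 4.34, 9.48 and 6.78 at M2. At M4 it had 8.34, 4.92, 4.88, 5.51 and 11.503 FPKM and at M6 5.07, 8.72, 9.08, 4.42 and 16.5. The M2 libraries did not overlap with D1, and M6-5 was above every D1 library. In limma its log2 fold change was -1.45 (SE 0.38, adjusted p = 0.143) in M2 vs. D1 and -1.02 (SE 0.31, adjusted p = 0.218) in the later stages vs. D1. NDUFA11, another accessory subunit of the membrane arm, on chromosome 7 from 92032031 to 92037342, had 10.8, 11.9, 17.05, 16.7 and 13.97 FPKM at D1 and 8.24, 9.82, 3.15, 5.17 and 7.67 at M4. Its M4 libraries were all below D1, but M2-3 with 18.8 FPKM and M6-5 with 18.5 were above it. In M4 vs. D1 its log2 fold change was -1.12 (SE 0.43, adjusted p = 0.473). NDUFAB1 is the mitochondrial acyl carrier protein and a subunit of complex I. It ranged from 16.6 to 26.3 FPKM in D1, 8.68 to 19.5 in M2, 14.1 to 42.5 in M4 and 7.001 to 18.1 in M6, with the highest value in M4-1 alone. Its log2 fold change of 0.75 (SE 0.30, adjusted p = 0.538) was the highest of the nuclear complex I subunits in M4 vs. M2. NDUFB1, a small membrane-arm subunit, had 5.37 to 38.1 FPKM at M2 and 11.9 to 15.05 at M6, and its log2 fold change was -0.36 (SE 0.40, adjusted p = 0.829) between these stages. That value rested on single libraries and was -0.78 without M2-1 and -0.08 without M2-2. NDUFB8, the most abundant nuclear complex I member, differed little, at 228 ± 50.9 FPKM (SD, n = 5) in D1, 201 ± 52.5 in M2, 191 ± 73.9 in M4 and 209 ± 34.6 in M6.

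Groups that did not overlap give a count that does not rest on the fit. The nuclear members whose later libraries all lay below D1 numbered 6 at M2 (2.32% of all genes), 4 at M4 (1.52%) and 12 at M6 (1.48%). The 6 in M2 vs. D1 were ATP5F1, ATP5G1, NDUFA8, NDUFB7, NDUFS1 and NDUFS6, and the 4 in M4 vs. D1 included ATP5G1, NDUFA11 and NDUFS8. In M6 vs. D1 they included ATP5A1, ATP5B, ATP5F1, ATP5G1, ATP5G3, NDUFA10, NDUFB11, NDUFS1, NDUFS4, NDUFV2 and SDHC. Several of these are core subunits, with NDUFS8 in the part of complex I that hands electrons to ubiquinone. ATP5G1 was the 1 member with all 15 later libraries below D1 (0.125% of all genes). No member had M2, M4, M6 or all later libraries wholly above D1, as 1.5%, 0.405%, 1.36% and 0.0179% of all genes had. NDUFA8, NDUFS6 and the other genes of these lists outside the naming rule were named after their values were seen.

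NDUFS6 and NDUFA8 had the smallest adjusted p in the later stages vs. D1. NDUFS6, an accessory subunit of the NADH module, had 32.7, 29.6, 44.5, 37.9 and 34.9 FPKM at D1 and 13.99, 29.1, 21.8, 23.4 and 20.3 at M2. It had 26.9, 34.3, 21.4, 20.9 and 27.8 FPKM at M4 and 26.6, 20.4, 19.5, 19.3 and 35.7 at M6. All M2 libraries lay below the lowest D1 library, M2-2 only just, and M4-2 and M6-5 lay within the D1 range. In the later stages vs. D1 its log2 fold change was -0.60 (SE 0.17, adjusted p = 0.189), and it was -0.75 (SE 0.21, adjusted p = 0.148) in M2 vs. D1. With library quality weights in limma, NDUFS6 was called in M2 vs. D1 at a log2 fold change of -0.69 (adjusted p = 0.0406), and it was the only member called there (0.859% of all genes were called lower). In the later stages vs. D1 the weights called 9 members, all lower (2.34% of all genes were called lower), among them NDUFS6, NDUFA8, NDUFB7, NDUFA11, SDHAF1, ATP5F1, ATP5G1 and ND6. NDUFA8 had the smallest adjusted p with the weights (0.0120), at a log2 fold change of -0.69. These weights give less influence to libraries that vary more.

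**Figure D4:**
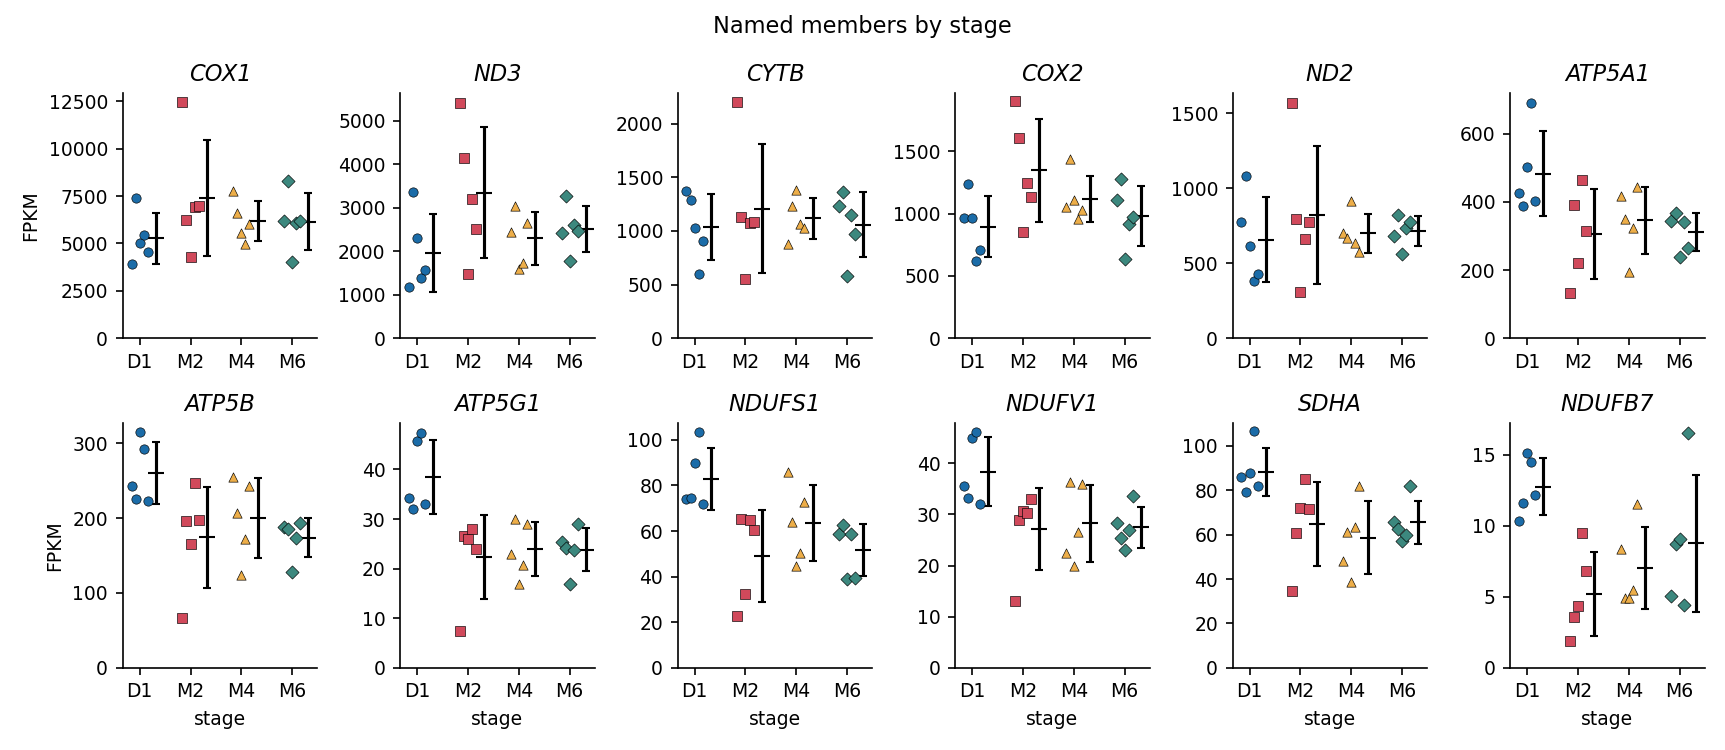
FPKM of 5 mitochondrial and 7 nuclear members in every library (points, 5 per stage), with the mean and SD of each stage (black bars); each panel has its own axis from 0. ATP5G1 had 32.1 to 47.4 FPKM at D1 and at most 30.01 at any later stage, while COX1 had 3906 to 7411 at D1 and 4013 to 12485 later.

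The 8 assembly factors of complex I were lower in the later stages for 7 genes, with a median log2 fold change of -0.28, smaller than that of the subunits. Only NDUFAF1 had an unadjusted p under 0.05, with -0.34 (SE 0.15, adjusted p = 0.394). NDUFAF4 had 7.39, 6.01, 9.71, 19.9 and 6.36 FPKM in D1, 6.08, 7.66, 3.11, 11.6 and 4.03 in M2, 18.9, 15.7, 5.998, 5.98 and 9.19 in M4 and 6.43, 9.02, 3.57, 7.48 and 3.90 in M6. D1-4, M4-1 and M4-2 were highest, so the stages overlapped widely. Its log2 fold change was 0.17 (SE 0.41, adjusted p = 0.946) in M4 vs. D1 and -0.79 (SE 0.41, adjusted p = 0.749) in M6 vs. M4. NDUFAF5, which modifies an arginine of a core subunit, had 9.48, 6.01, 7.54, 6.72 and 5.90 FPKM at M4 and 5.61, 3.87, 4.23, 3.12 and 5.42 at M6. All M6 libraries were below all M4 libraries, a separation found for 0.316% of all genes in that comparison, and NDUFAF5 was the only member to show it. Its estimate was a log2 fold change of -0.68 (SE 0.23, adjusted p = 0.700).

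Complex II, the succinate dehydrogenase, feeds electrons from the tricarboxylic acid cycle and has no mitochondrial gene. All 4 subunits were lower in the later stages vs. D1, with a median log2 fold change of -0.40, and SDHA and SDHC had an unadjusted p under 0.05. SDHA, the flavoprotein that oxidizes succinate, had 85.9, 79.2, 87.8, 107 and 81.96 FPKM at D1 and 34.6, 60.95, 71.9, 85.04 and 71.5 at M2. It had 48.3, 61.2, 38.7, 63.6 and 81.8 FPKM at M4 and 65.8, 62.7, 57.1, 60.1 and 82.1 at M6. M2-4, M4-5 and M6-5 lay above the lowest D1 library, and every other later library was below it. SDHA had a log2 fold change of -0.52 (SE 0.18, adjusted p = 0.283) in the later stages vs. D1. SDHB, the iron-sulphur subunit, differed less, at 24.8 ± 4.03 FPKM (SD, n = 5) in D1 and 21.5 ± 5.85, 25.4 ± 11.003 and 21.2 ± 3.40 in M2, M4 and M6. SDHB had a log2 fold change of -0.18 (SE 0.21, adjusted p = 0.770), and of 0.28 with the mapping rate as a covariate. The membrane anchors SDHC and SDHD had log2 fold changes of -0.57 and -0.28 in the later stages vs. D1.

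Among the assembly factors of complex II, SDHAF1, which serves the iron-sulphur subunit, had 4.38, 4.73, 5.05, 5.40 and 3.54 FPKM at D1 and 3.65, 2.03, 2.32, 1.27 and 3.08 at M4. M4-1 lay within the D1 range and the other 4 M4 libraries below it. SDHAF1 had a log2 fold change of -0.95 (SE 0.28, adjusted p = 0.296) in M4 vs. D1, the lowest adjusted p of any member in that comparison, and 0.63 (SE 0.28, adjusted p = 0.700) in M6 vs. M4. SDHAF3, which acts in the same step, had 0.903 to 5.40 FPKM at M2, 1.72 to 4.25 at M4 and 2.49 to 7.63 at M6. Its log2 fold change was -0.56 (SE 0.41, adjusted p = 0.696) in M4 vs. M2 and 0.66 (SE 0.41, adjusted p = 0.786) in M6 vs. M4, with the stages overlapping. Without M2-3 the former was -1.01, and without M6-3 the latter was 0.41.

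NDUFA4 carries a complex I symbol but is known as a subunit of complex IV. It had 162, 159.8, 266, 351 and 194 FPKM at D1 and 84.6, 199.9, 93.4, 224 and 155 at M2. At M4 it had 273, 216, 82.97, 127 and 178 FPKM and at M6 105, 181, 133, 110.3 and 101. Only M6-2 among the M6 libraries reached the D1 range, and 3 M4 libraries lay within it. In M6 vs. D1 its log2 fold change was -0.81 (SE 0.33, adjusted p = 0.632), the lowest of the nuclear members there, and -0.61 (SE 0.27, adjusted p = 0.390) in the later stages vs. D1. Its paralog NDUFA4L2, known to be induced in low oxygen, was near the limit of the data at 0 to 1.40 FPKM. NDUFA4L2 was thus far below NDUFA4 in every library. NDUFA4L2 had 0.629, 0.544, 0, 1.40 and 1.22 FPKM in the M6 libraries and 0.358, 0.257, 0.281, 0.668 and 0.491 at D1, and its log2 fold change was 0.14 (SE 0.48, adjusted p = 0.929).

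The nuclear genes of the ATP synthase were lower in the later stages vs. D1 for 15 of 17, with a median log2 fold change of -0.51. For 12 of the 17 the unadjusted p was under 0.05, and none was called. ATP5A1, the alpha subunit, lies on chromosome 24 from 46096728 to 46105461 and had 426, 388, 503, 689.9 and 403 FPKM at D1 and 133, 392, 222, 463 and 315 at M2. It had 416, 350.5, 194, 324 and 443 FPKM at M4 and 342, 367, 237, 339.9 and 265 at M6. D1-4 was highest and M2-1 lowest, and the M6 libraries were all below D1. For ATP5A1 the log2 fold change was -0.63 (SE 0.25, adjusted p = 0.349) in the later stages vs. D1. ATP5B, the catalytic beta subunit, had 243, 226, 314, 293 and 223 FPKM in D1, 66.3, 196, 165, 247 and 197 in M2, 255, 206, 124, 172 and 243 in M4 and 188, 185, 129, 174 and 193 in M6. Its M6 libraries were also all below D1, and its log2 fold change was -0.56 (SE 0.24, adjusted p = 0.366). ATP5E and ATP5J2 had log2 fold changes of -0.57 and -0.69, with 305 ± 78.99 and 307 ± 104 FPKM at D1 (SD, n = 5) and 212 ± 56.8 and 168 ± 58.7 at M2.

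ATP5F1, the b subunit of the peripheral stalk, had 194, 178, 295, 254 and 213 FPKM at D1 and 52.8, 171, 87.1, 169 and 133 at M2. It had 216, 134, 82.8, 141 and 187 FPKM at M4 and 161, 153, 148, 125 and 98.4 at M6. No M2 or M6 library reached the lowest D1 library, and M4-1 and M4-5 did. The log2 fold change was -0.99 (SE 0.30, adjusted p = 0.164) in M2 vs. D1 and -0.72 (SE 0.30, adjusted p = 0.634) in M6 vs. D1. ATP5G1, ATP5G2 and ATP5G3 encode the same c subunit of the rotor ring with different import signals. ATP5G1, on chromosome 19 from 37264137 to 37266910, had 34.3, 32.1, 45.7, 47.4 and 33.002 FPKM at D1 and 7.47, 26.7, 25.99, 28.01 and 23.98 at M2. At M4 it had 22.99, 30.01, 16.99, 20.8 and 29.001 FPKM and at M6 25.4, 24.2, 16.8, 23.9 and 29.02. The highest later library, M4-2, was just below the lowest at D1, D1-2. Compared with D1, the later stages had a log2 fold change of -0.76 (SE 0.24, adjusted p = 0.227) for ATP5G1, against -0.51 (SE 0.22, adjusted p = 0.385) for ATP5G3 and -0.11 (SE 0.19, adjusted p = 0.852) for ATP5G2. ATP5G3 held 64.8% to 77.2% of the FPKM of these genes in every library, with a mean of 71.6% at D1 and 72.8%, 72.3% and 71.4% at the later stages. ATP5G1 held 20.9% ± 0.939 (SD, n = 5) in D1, 16.8% ± 3.52 in M2, 18.01% ± 2.23 in M4 and 18.4% ± 1.43 in M6.

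Among the other ATP5 genes, M2 differed from D1 by a log2 fold change of -0.82 for ATP5H, -0.70 for ATP5L, -0.69 for ATP5O, -0.66 for ATP5C1 and -0.63 for ATP5J, and none was called. These 5 were named after their values were seen. ATP5S, known as a coupling factor of the ATP synthase, had 17.6, 30.4, 13.6, 31.1 and 27.3 FPKM at M2 and 38.5, 34.97, 56.3, 28.1 and 24.2 at M6. M6-3 was the highest and M2-3 the lowest of these 10, and the log2 fold change in M6 vs. M2 was 0.61 (SE 0.28, adjusted p = 0.746). ATP5SL, known to act in the assembly of complex I in spite of its symbol, had 1.78 to 3.31 FPKM at D1 and 1.98 to 4.46 at M6. Its log2 fold change in M6 vs. D1 was 0.32 (SE 0.35, adjusted p = 0.843), and 0.17 without M6-5.

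Against D1, only COX3, ND4 and ND6 of the mitochondrial members had an unadjusted p under 0.05, all lower than at D1. COX3 and ND4 were each at separate levels in different libraries, as given below. The next smallest p was that of ATP6 at M2, with a log2 fold change from D1 of 1.05 (SE 0.50, unadjusted p = 0.0501 by limma). COX1 had 3906, 7411, 5039, 5453 and 4542 FPKM at D1 and 12485, 6265, 4279.9, 6922 and 6988 at M2. It had 7763, 6594, 5564, 4993 and 6003 FPKM at M4 and 6187, 8301, 4013, 6093 and 6161 at M6. M2-1, M4-1 and M6-2 were above the D1 range and the other later libraries within it, and the log2 fold change in the later stages vs. D1 was 0.30 (SE 0.44, adjusted p = 0.822). COX2, which binds the copper centre that receives electrons from cytochrome c, had a log2 fold change of 0.35 (SE 0.25, adjusted p = 0.600), and of 0.58 (SE 0.31, adjusted p = 0.368) in M2 vs. D1. CYTB had 1037 ± 312 FPKM (SD, n = 5) in D1, 1207 ± 603 in M2, 1116 ± 195 in M4 and 1059 ± 302 in M6, and a log2 fold change of 0.11 (SE 0.30, adjusted p = 0.908). Among the complex I subunits, the log2 fold change was 0.25 for ND1, 0.21 for ND2, 0.49 for ND3, -0.05 for ND4L and 0.16 for ND5. The smallest adjusted p of these 5 was 0.608, for ND3, with 1963 ± 892 FPKM at D1 and 3352 ± 1510.2 at M2. ND4L changed sign between alternatives, for example to 0.13 with quantile normalization.

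ND6 was lower in the later stages, while the other 7 of the 8 members were higher, although ND5 and CYTB turned to -0.05 and -0.06 with the mapping rate and the replicate number in the model. It had 26.8, 29.4, 16.8, 17.1 and 17.6 FPKM at D1 and 21.1, 16.1, 8.24, 12.02 and 11.9 at M2. At M4 it had 20.7, 13.9, 20.6, 8.51 and 11.4 FPKM and at M6 11.7, 11.8, 7.06, 17.7 and 19.3. D1-1 and D1-2 were highest, and the other D1 libraries overlapped with the later ones. For ND6 the log2 fold change was -0.64 (SE 0.25, adjusted p = 0.329) in the later stages vs. D1, -0.66 (SE 0.31, adjusted p = 0.305) in M2 vs. D1 and -0.71 (SE 0.31, adjusted p = 0.638) in M6 vs. D1. ATP8 and ATP6, the ATP synthase subunits, had log2 fold changes of -0.25 and 0.61, with SE of 0.27 and 0.41. ATP6 had 91.7, 239, 205, 399.8 and 129 FPKM at D1 and 721, 682, 112, 725 and 221 at M2. In M2-1, M2-2, M2-4 and M4-4 it was above 600 FPKM, and in all other libraries at most 399.8.

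COX3 and ND4 were each found at separate levels in different libraries, with 221-fold and 336-fold between the highest low and the lowest high library. For ATP5I this step was 5.18-fold and less clear, because its low libraries alone ran from 1.80 to 9.57 FPKM. NDUFB2 spread widely. COX3 lies from 8609 to 9392 of the mitochondrial genome and had 1295, 1532, 1.44, 661 and 802 FPKM at D1. It had 2.99, 1.94, 2.06, 1.92 and 1085 FPKM at M2, 1.45, 2.03, 1.51, 1.16 and 1118 at M4 and 1.81, 1.81, 1.71, 1.95 and 1012 at M6. It was thus between 1.16 and 2.99 FPKM in 13 libraries and between 661 and 1532 in the other 7, with nothing between. The high libraries were 4 of the 5 at D1 and library 5 of each later stage. The log2 fold change of COX3 in the later stages vs. D1 was -5.35 (SE 1.89, adjusted p = 0.283), and this value gives how many libraries of each stage were at the high level rather than a graded difference. ND4, from 10168 to 11545, was at 540.2 FPKM in D1-1 and 274 in D1-5 and between 0.129 and 0.815 in the other 18. ND4 had a log2 fold change of -3.75 (SE 1.27, adjusted p = 0.266) in the later stages vs. D1. This value too gives the number of libraries at the high level, 2 at D1 and 0 at each later stage. ND4L, which shares 7 bases with ND4 and precedes it, was between 312 and 1289 FPKM in all 20 libraries. ATP6 was between 91.7 and 399.8 FPKM in the libraries with high COX3 and between 112 and 725 in the others.

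**Figure D5:**
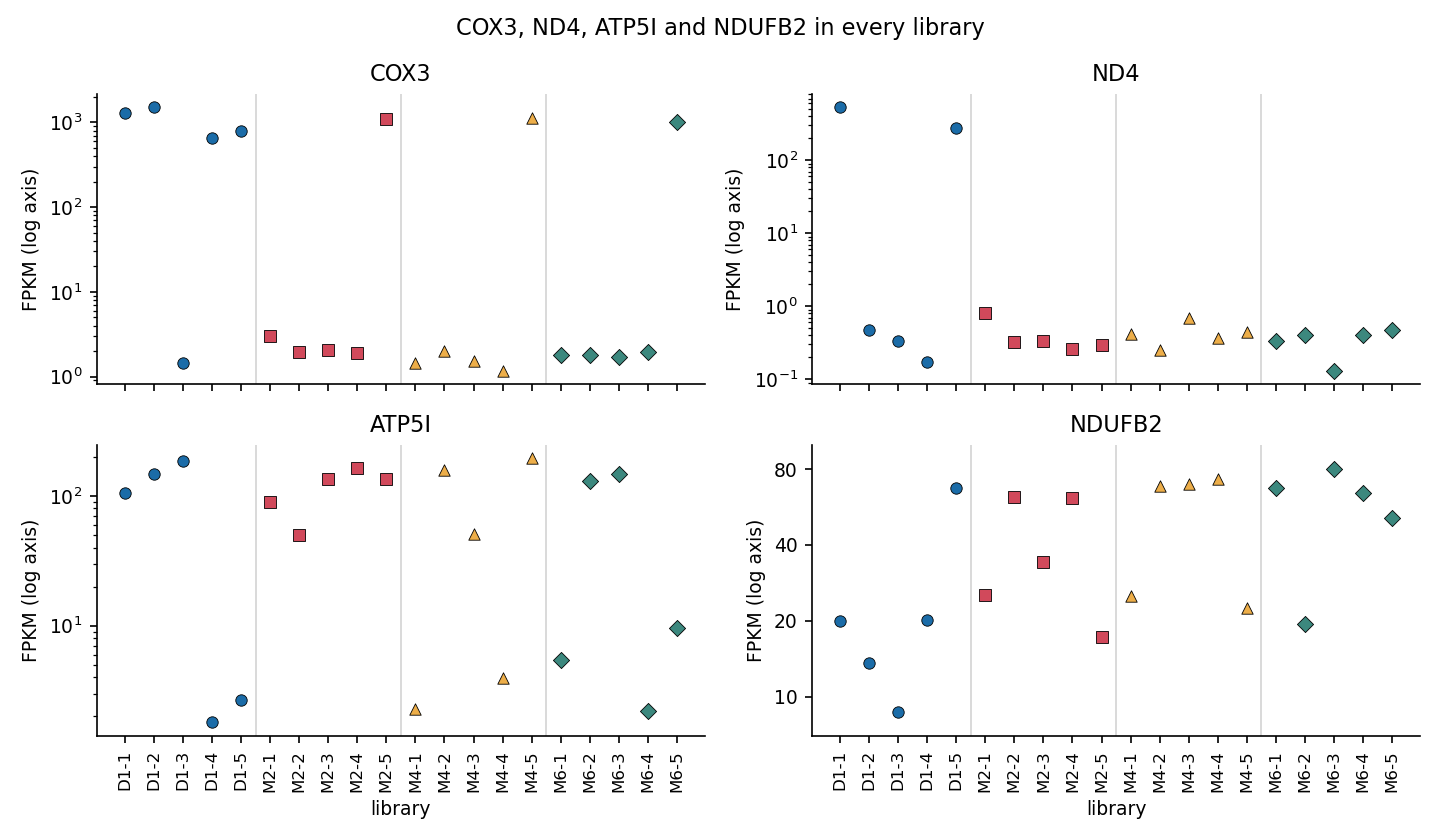
FPKM of COX3, ND4, ATP5I and NDUFB2 in each of the 20 libraries, ordered by stage and number, on log axes. COX3 was at 661 FPKM or more in 7 libraries and at 2.99 or less in the other 13, and ATP5I at 49.6 or more in 13 and at 9.57 or less in 7.

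ATP5I, the e subunit of the ATP synthase, lies on chromosome 6 from 117511862 to 117513678. It had 106, 147, 186, 1.80 and 2.69 FPKM at D1 and 90.5, 49.6, 135, 163 and 135 at M2. At M4 it had 2.30, 158, 50.8, 3.94 and 196 FPKM and at M6 5.47, 131, 147, 2.19 and 9.57. It was high in all 5 M2 libraries, in 3 each at D1 and M4 and in 2 at M6. The neighbouring gene MFSD7, from 117500584 to 117509668, ends 2193 bp from ATP5I. MFSD7 was between 14.97 and 33.8 FPKM in the 7 libraries with low ATP5I and between 2.45 and 28.4 in the other 13, with r = -0.87 and rho = -0.74 between the log2 values of both genes over the 20 libraries. M2-2 was intermediate, with 49.6 FPKM of ATP5I and 28.4 of MFSD7. MFSD7 was chosen after its values were seen, and whether reads of ATP5I were assigned to it was not tested. PDE6B, on the other side of ATP5I, had 0 to 5.80 FPKM over the 20 libraries. Set against D1, ATP5I had a log2 fold change of 1.95 (SE 1.48, adjusted p = 0.536) at M2 and 0.47 (SE 1.204, adjusted p = 0.904) in the later stages. Set against M2, it had -1.95 (SE 1.48, adjusted p = 0.705) at M4 and -2.49 (SE 1.48, adjusted p = 0.750) at M6.

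NDUFB2, an accessory subunit of the membrane arm of complex I, lies on chromosome 4 from 16396972 to 16403922. It had 19.98, 13.6, 8.69, 20.2 and 67.2 FPKM at D1 and 25.3, 62.2, 34.3, 61.3 and 17.2 at M2. At M4 it had 25.1, 68.5, 69.99, 72.7 and 22.4 FPKM and at M6 67.4, 19.3, 79.8, 64.5 and 51.1. NDUFB2 was at 34.3 FPKM or less in 10 libraries and at 51.1 or more in the other 10. This step of 1.49-fold was small beside the range of the lower 10, which began at 8.69, so separate levels as in COX3 were not seen. The higher 10 were 1 of the D1, 2 of the M2, 3 of the M4 and 4 of the M6 libraries. Compared with D1, its log2 fold change was 0.83 (SE 0.52, adjusted p = 0.442) for M2, 1.18 (SE 0.52, adjusted p = 0.534) for M4 and 1.34 (SE 0.52, adjusted p = 0.617) for M6, the highest of the nuclear members in each but the first. The neighbouring gene BRAF did not mirror it, with r = 0.25 over the 20 libraries. ADCK2, on the other side of NDUFB2, had 0.488 to 3.98 FPKM.

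Among the later stages, the nuclear members differed less in the median than from D1, which did not hold for every comparison of the mitochondrial members. The median log2 fold change of the nuclear members was 0.14 for M4 against M2, 0.16 for M6 against M2 and 0.06 for M6 against M4, and that of the mitochondrial members was -0.08, -0.14 and -0.12. Without M2-1 the nuclear median in M4 vs. M2 was -0.05 and the mitochondrial ones were 0.15 in M4 vs. M2 and 0.10 in M6 vs. M2, and without M4-3 the nuclear median in M6 vs. M4 was -0.13. Without M2-1, M2-3 and M6-3 the nuclear medians were -0.16 for M4 against M2 and -0.13 for M6 against M2, so their sign rested on these libraries. Without M6-3 the mitochondrial medians were 0.06 for M6 against M2 and 0.09 for M6 against M4. Of the 85 members, limma gave an unadjusted p under 0.05 with a higher level for 3 at M4 against M2 (3.95% of all genes), 1 at M6 against M2 (3.26%) and 1 at M6 against M4 (3.99%). With a lower level it did so for 0, 0 and 2 (4.72%, 2.89% and 2.88% of all genes). They were ATP8, NDUFAB1 and NDUFAF5 in M4 vs. M2, ATP5S in M6 vs. M2, and SDHAF1 (higher), ATP8 (lower) and NDUFAF5 (lower) in M6 vs. M4. ATP8 had 37.8, 46.2, 82.4, 48.96 and 48.6 FPKM at M4 against 16.2 to 40.9 at M2 and 21.2 to 42.6 at M6. At D1 it had 76.05, 68.9, 42.3, 22.7 and 24.8 FPKM, a range that held 4 of the 5 M4 values, and M4 differed from D1 by a log2 fold change of 0.29 (SE 0.33, adjusted p = 0.874). NDUFB7 had a log2 fold change of 0.77 (SE 0.38, adjusted p = 0.746) in M6 vs. M2, the highest of the nuclear members.

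Genes that serve or feed the respiratory chain were compared in the same fit. Of the 77 mitochondrial ribosomal proteins, which translate the mitochondrial members, 72 were lower in the later stages vs. D1, with a median log2 fold change of -0.34 and an unadjusted p under 0.05 for 19. All 18 genes of the tricarboxylic acid cycle were lower, with a median of -0.40 and an unadjusted p under 0.05 for 8. Their sum at M2 and at M6 lay below every D1 library. All 19 genes of glycolysis and lactate were lower too, with a median of -0.38 and no unadjusted p under 0.05. The 80 cytosolic ribosomal proteins tested had a median of -0.09, with 63 lower. Of all genes tested, 56.9% were lower in the later stages vs. D1, and 7.04% were so with an unadjusted p under 0.05. These shares apply to the lists of genes and markers below too. None of the genes of these lists of ribosomal and metabolic genes had an adjusted p under 0.05 by limma.

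The medians of the regulators and of the mitochondrial expression machinery were closer to that of all genes. The 12 genes of mitochondrial DNA replication and transcription had a median log2 fold change of -0.13 in the later stages vs. D1, with 9 lower, and the 13 of mitochondrial RNA stability and processing -0.24, with 11 lower. The median was -0.18 for the 11 regulators of nuclear respiratory genes, with 7 lower, and -0.13 for 11 assembly factors of other complexes. Only 2 of the 18 listed assembly factors of cytochrome c oxidase were in the data analysed. TFAM, the packaging and transcription factor of mitochondrial DNA, had 19.1, 15.7, 16.03, 15.8 and 15.8 FPKM at D1 and 13.3, 13.6, 7.62, 11.9 and 13.6 at M2. All M2 libraries lay below D1, and the log2 fold change was -0.48 (SE 0.17, adjusted p = 0.206) in M2 vs. D1 and -0.23 (SE 0.14, adjusted p = 0.522) in the later stages vs. D1. LRPPRC, which stabilizes mitochondrial mRNAs, had log2 fold changes of -0.52 (SE 0.23, adjusted p = 0.289) and -0.36 (SE 0.19, adjusted p = 0.465). PPARGC1A, a coactivator of nuclear respiratory genes, had -0.44 (SE 0.27, adjusted p = 0.427) and -0.25 (SE 0.22, adjusted p = 0.670), and ESRRG, a nuclear receptor that works with it, had -0.20 (SE 0.52, adjusted p = 0.884) and -0.49 (SE 0.42, adjusted p = 0.670). None of these 4 was called.

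Markers of other cell types were set beside the members. Summed oligodendrocyte and myelin markers ranged from 519 to 16484 FPKM, and 9 of the 10 were lower in the later stages vs. D1 at a median of -0.96. Their sum had r = -0.02 with the nuclear sum. Astrocyte markers had a median of 0.03 with 2 of 7 lower, microglia markers 0.08 with 2 of 7 lower and endothelial markers -0.10 with 4 of 6 lower. The microglia sum had r = -0.53 with the nuclear sum, and M2-1 had the highest microglia sum (252 FPKM). All 5 proliferation markers were lower in the later stages, 4 with an unadjusted p under 0.05. The only gene of the marker lists that limma called was ALAS2 of erythroid cells, at a log2 fold change of -3.01 (adjusted p = 0.00361), and the erythroid markers summed to at most 3.73 FPKM, with HBM at 0 in all libraries. The highest r with the nuclear sum was 0.72, for the erythroid markers, then 0.60 for proliferation and 0.53 for immature neurons. The lowest, after the microglia, were -0.44 for pericytes and smooth muscle and -0.38 for endothelium. The neuron markers had 0.51, as given above, and the remaining lists had r from -0.23 to 0.30. The part of these cell types in the differences of the members was not tested.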

How the data were processed

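Hypothalamus RNA of 20 female goats (5 per stage) was sequenced after rRNA depletion as strand-specific libraries. Reads were cleaned with fastp by the authors, mapped to the goat genome ARS1.2 with HISAT2 2.0.5 and assembled into transcripts with StringTie 1.3.3b, and the deposited values are FPKM per gene with NCBI gene numbers. These FPKM are not whole multiples of a step, so counts could not be recovered. How many reads lie behind a single value is unknown, and a count-based test was not used. The study lists clean and mapped reads in its supplement, and these were not used here to estimate counts. FPKM share 1 denominator per library, so a very abundant gene lowers all others.

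Gene numbers were paired with symbols, positions and lengths from the RefSeq table of ARS1.2 (20610 of 21071 genes). Groups and numbers came from the labels. The 16771 genes that reached 0.1 FPKM in 5 or more libraries were tested on log2(FPKM + 0.1) with limma 3.58.1 (R 4.3.3), with all 4 stages in 1 fit, a variance trend, two-sided tests and Benjamini-Hochberg adjustment over all genes in each comparison. Fold changes are on this scale, which understates those of low genes. A gene was called at an adjusted p under 0.05, and counts at an unadjusted p under 0.05 and of groups that did not overlap are descriptions. The study describes 5 separate goats per stage. Sums and shares were made from FPKM with Python 3.11.15, pandas 2.3.3, numpy 2.4.6 and matplotlib 3.10.9, and correlations from log2 values. Alternatives covered the scaling, pseudocount, filter, variance trend, library weights, replicate number, mapping rate (from the study's supplement, as a covariate), the samples fitted and leaving out libraries. The fit was also run on simulated data in which genes vary independently. The members here vary together, so that run does not bear on their results.

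The text names all 13 mitochondrial members. Of the nuclear members it names the 2 highest and the 2 lowest fold changes of each comparison with a mean of at least 1 FPKM, the 5 highest mean levels, the catalytic subunits, NDUFA4 with its paralog and the c subunit genes, and the 4 regulators PPARGC1A, ESRRG, TFAM and LRPPRC. The members and the lists were chosen with earlier results of these data known. Genes outside this rule, among them NDUFS6, NDUFA8, NDUFB6 and NDUFAF1, were named after their values were seen. Results of 1 nuclear member are not reported here by name, and it stays in the counts. Sequences of the members were not analysed here.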

Additional observations from a re-analysis of the deposited data

Results flagged for a closer look

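In 172 groups of 5 libraries, the gap between the highest or lowest library and the next was compared with the group's range. Dixon's critical value of 0.71 of the range is exceeded in about 1 of 20 groups of normally distributed values. FPKM need not be so distributed and the groups share libraries, so the count is a description. The critical value was exceeded in 19. M2-1 was the extreme library in 4 of these, M6-3 in 3, and M4-3 and M4-5 in 2 each.

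Among the sums, the mitochondrial sum of D1-2 was 17932 FPKM against 10179 to 11516 in the other D1 libraries. The ratio of the mitochondrial to the nuclear sum was 11.01 in M2-1 against 2.53 to 3.62 in the other M2 libraries. It was 4.75 in M4-3 against 2.43 to 2.98 in the other M4 libraries.

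Among the mitochondrial genes, COX3 was the clearest case, at 1085 FPKM in M2-5, 1118 in M4-5 and 1012 in M6-5 with at most 2.99 in the other libraries of each stage. ATP6 was 643 FPKM in M4-4 against at most 205 in the other M4 libraries. ATP8 was 82.4 FPKM in M4-3, ND4 was 0.815 FPKM in M2-1 against at most 0.333, and ND5 was 122 FPKM in M6-3 against at least 203.

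Among the nuclear genes, low libraries were M2-1 for NDUFV1 (13.03 FPKM against at least 28.99) and for ATP5G1 (7.47 FPKM against at least 23.98). NDUFAB1 was 42.5 FPKM in M4-1 against at most 20.99 and 7.001 FPKM in M6-3 against at least 15.6. SDHAF3 was 4.25 FPKM in M4-5 and 7.63 FPKM in M6-3, each above the other 4 libraries of the stage. NDUFB2 was 67.2 FPKM in D1-5 against at most 20.2, and NDUFAF4 was 19.9 FPKM in D1-4 against at most 9.71. NDUFA4L2 was 0.0409 FPKM in M4-2 against at least 0.329.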

How the results depend on the processing

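No member was called under any alternative except library quality weights, which called 1 in M2 vs. D1 and 9 in the later stages vs. D1. The nuclear medians kept their sign against D1 in all alternatives. In M2 vs. D1 the median was -0.13 with the mapping rate as a covariate and -0.015 with the replicate number added, and in the later stages vs. D1 it was -0.057 with both. The cause was not tested. Averaging log2 values in place of summing FPKM gave mitochondrial differences of -0.50 (M2), -0.57 (M4), -0.67 (M6) and -0.58 (later stages) and ratios of -0.031, -0.17, -0.33 and -0.18. This comes from the equal weight of COX3 and ND4.

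Of the single genes, those that changed sign were not called in either direction. ATP5I turned to -0.060 in M2 vs. D1 with the mapping rate. In the later stages vs. D1, ATP5I was -0.63 with quality weights, -1.13 with the mapping rate, -0.41 with the mapping rate and replicate number, and from -0.49 to 1.16 without 1 library (-0.49 without D1-4, -0.35 without D1-5). With both covariates, ATP5B was 0.20, NDUFS1 0.016, SDHB 0.47, ATP5G2 0.0013, ATP5G3 0.077, ND5 -0.053 and CYTB -0.058. With the mapping rate alone, SDHB was 0.28, ATP5G2 0.065 and ND4L 0.13. With quantile normalization NDUFB8 was 0.055, NDUFA4L2 -0.0090 and ND4L 0.13. ND4L was also 0.00256 with median-ratio scaling, 0.032 with scaling that left out mitochondrial genes, 0.12 without M2-3 and M6-3, and 0.046 without M2-1, M2-3 and M6-3, a set chosen after seeing the data. Without 1 library, ND4L ran from -0.25 to 0.14, ND5 from -0.054 to 0.36, CYTB from -0.078 to 0.22 and, in M4 vs. D1, NDUFAF4 from -0.063 (without M4-1) to 0.46.

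Libraries with the same replicate number were mostly not alike. Of 30 such pairs, 7 correlated above 0.1 after stage means were subtracted (from -0.25 to 0.43). The correlations of each library with those of other stages were also averaged by number. In 3 of 20 libraries their own number had the highest mean. COX3 was an exception, since at M2, M4 and M6 it was high only in library 5. With the replicate block alone 0 members were called, and the nuclear median in the later stages vs. D1 stayed at -0.44. In all genes the block called 4 higher and 11 lower there. Motif searches in promoters were not run. The unknown number of reads behind a single value limits what can be said of members near 0, such as NDUFA4L2.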

Other observations

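Of the 72 nuclear members, 47 had their highest value in a D1 library and 2 had their lowest there. The share of COX1 in the summed FPKM of the 13 mitochondrial members ran from 33.9% to 55.2% over the 20 libraries.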
